A study of Mus musculus with 2 samples.

Results

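Hnf4a occupancy in induced hepatocyte-like cells was examined at 10 genes that make and transport bile acids: Cyp7a1, Cyp8b1, Cyp27a1, Cyp7b1, Hsd3b7, Akr1d1, Slc27a5, Baat, Slc10a1 and Abcb11. They are 10 of 21887 protein-coding genes of RefSeq GRCm38.p6, the assembly of mm10, and were listed by name. A peak summit, the 1 base at which a called peak was highest, was assigned to a gene if it lay inside the gene or within 50 kb of either end. Summits of both replicates that lay within 100 bp of each other counted as shared. By this rule the genes held 28 of 21283 summits in replicate 1 and 28 of 24097 in replicate 2, and 16 of the 9193 summits that were shared.

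The cells (iHepCs) came from wild-type C57BL/6J mouse embryonic fibroblasts, into which Foxa2 and Hnf4a were introduced with a retroviral vector, and were grown with insulin, nicotinamide, 100 nM dexamethasone, HGF at 20 ng/ml and EGF at 20 ng/ml. The assay was ChIL-seq (chromatin integration labelling). An antibody-bound probe guides Tn5 transposase to place a T7 promoter beside the target protein in fixed cells, so that nearby DNA is transcribed in place and sequenced. The study has 1 group of 2 replicates, described as biological, and the peak names put both in the same lot of cells. Both carry the introduced Hnf4a, and whether the signal came from introduced or endogenous protein was not tested. No untreated cells or control libraries were analysed here, so no condition is compared and no test between groups exists. Each summit carries the authors' score, the −log10 q of the peak, and the lists hold no read counts, so the depth is unknown.

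Bile acids are made in hepatocytes from cholesterol. In the classic route Cyp7a1 hydroxylates cholesterol in its first, rate-limiting step, and in the alternative route Cyp27a1 oxidises the side chain and Cyp7b1 adds the ring hydroxyl. Hsd3b7 and Akr1d1 then modify the ring, Cyp8b1 directs intermediates to cholic acid, and Slc27a5 and Baat activate bile acids and join them to taurine or glycine. Slc10a1 (NTCP) takes bile acids up from the blood and Abcb11 (BSEP) pumps them into the bile canaliculus. Hnf4a is a nuclear receptor known to support the expression of many of these genes in the liver.

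Shared Hnf4a summits stood in or beside 8 of the 10 genes, all but Cyp7a1 and Slc10a1, where 47.9% of all protein-coding genes had one. Their windows had a median length of 117.0 kb against 117.2 kb over all genes, and a median of 1 shared summit against 0. Without the demand for a match, replicate 1 had a summit at 10 of the 10 genes, against 70.2% of all genes, and replicate 2 at 9, against 73.4%. The rule places no demand on the gene nearest to a summit. In 8 of the 16 shared sites another protein-coding gene was nearer, and 5 of the 10 genes were themselves the nearest to a shared summit, against 23.6% of all genes. A summit that scored at least 10 in both replicates was found at 5 of the 10, against 22.0%. Since the genes were listed with earlier results of these data known, these counts describe the genes and were not tested.

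**Figure D1:**
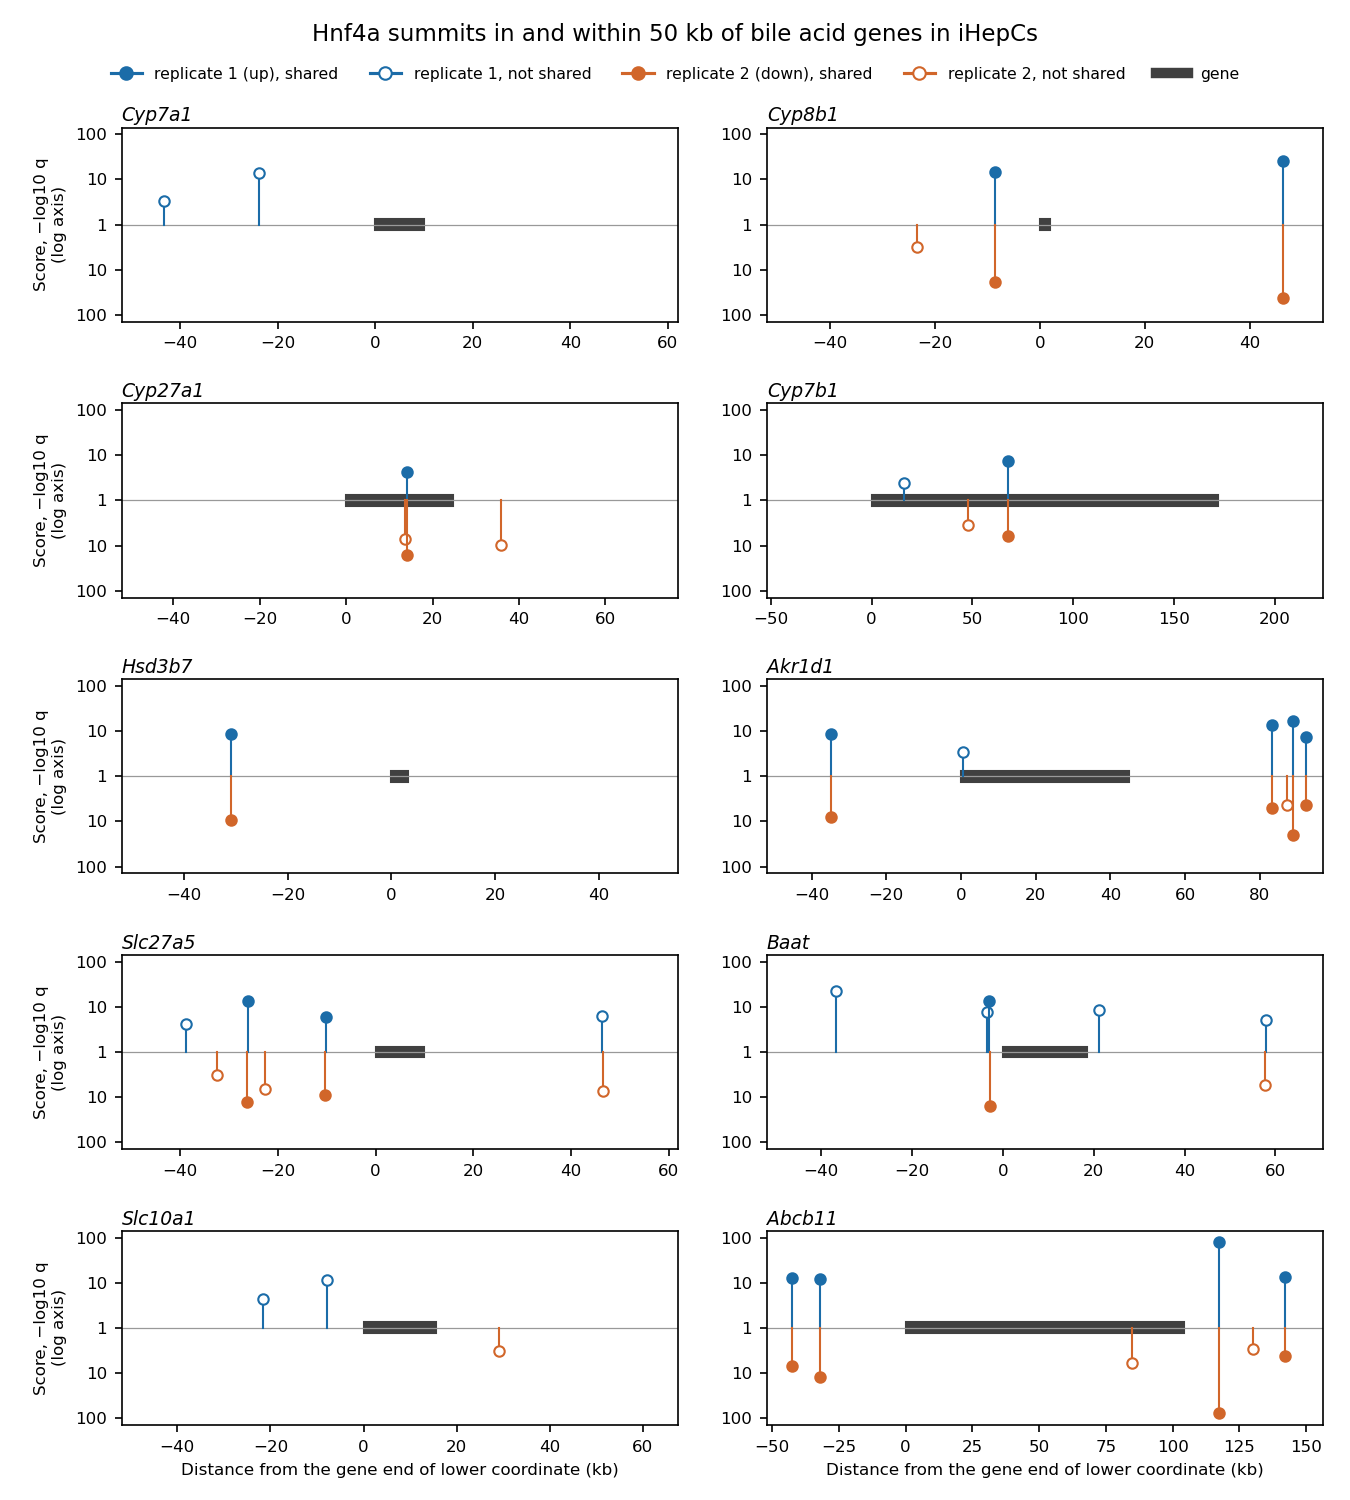
Hnf4a summits in and within 50 kb of each bile acid gene. The x axis is the distance in kb from the gene end of lower coordinate, the y axis is the −log10 q score on a log axis, upward for replicate 1 and downward for replicate 2, filled circles are shared summits, open circles are summits of a single replicate and the dark bar is the gene. Cyp7a1 and Slc10a1 have open circles only, while the tall pair at Abcb11 scored 79.3 and 76.5.

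Most shared sites lay outside the 10 genes, in windows that reach 50 kb beyond each end. Of the 16, 7 were inside a protein-coding gene of any kind, a share that was not computed over all shared summits. Of these 7, 2 were inside bile acid genes, Cyp7b1 and Cyp27a1. Thus 2 of the 10 genes held an internal shared summit, where 13.7% of all genes did. A further 2, at Cyp8b1 and Baat, were within 10 kb of the gene, giving 4 of 10 genes against 26.0% of all genes, and the other 12 sites were more than 10 kb away. None of the 10 genes had a shared summit within 1 kb of either end, where 8.73% of all genes had one. RefSeq promoter windows, 250 bases before to 50 after an annotated start, were listed for 6 of the 10 genes at 7 starts. None of these 7 windows held a summit of either replicate. Of the 32851 windows of all genes, 3.58% held a shared summit, and the share with any summit was not computed. With so low a share, 7 windows are too few for the lack of a summit to set these genes apart.

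Among the enzymes that start synthesis, Cyp7a1 (chr4:6265612-6275632) had no shared summit. Replicate 1 placed 2 summits beyond its end of lower coordinate, 23727 bp away with a score of 13.9 and 43195 bp away with 3.29, and both were nearer to Ubxn2b. Replicate 2 had none in the window, and its summit closest to the first of them stood 221590 bp off. The site scoring 13.9 was therefore seen in a single replicate. Of the 1430 replicate 1 summits with scores within 10% of it, 72.8% were shared, so that 27.2% were without a counterpart as this site was.

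Cyp8b1 (chr9:121914356-121916305, minus strand), a short gene that is a known Hnf4a target in liver, had 2 shared sites with high scores in both replicates. The stronger stood 44388 bp upstream of the gene in replicate 1 and 44385 bp in replicate 2, inside the neighbouring gene Gask1a, and scored 25.5 in replicate 1 and 41.3 in replicate 2. These scores ranked 585 and 122 in their lists. The weaker lay 8461 bp downstream in replicate 1 and 8456 bp in replicate 2, inside the chemokine scavenger receptor gene Ackr2, with 14.8 and 18.6. Both pairs of summits were at most 5 bp apart, and both sites scored higher in replicate 2. A further summit, 23326 bp downstream with a score of 3.19, occurred in replicate 2 alone.

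The promoter of Cyp8b1 is shown because it holds an HNF4 motif and no summit. How many of all promoter windows with that motif hold a summit was not counted. Read 5′ to 3′ on the gene's strand (RefSeq, GRCm38.p6, chr9:121916306-121916555, minus), the 250 bases before the start hold the HNF4 motif CAAAGTCCA, marked in capitals, at positions −67 to −59 from the start.
Cyp8b1 promoter: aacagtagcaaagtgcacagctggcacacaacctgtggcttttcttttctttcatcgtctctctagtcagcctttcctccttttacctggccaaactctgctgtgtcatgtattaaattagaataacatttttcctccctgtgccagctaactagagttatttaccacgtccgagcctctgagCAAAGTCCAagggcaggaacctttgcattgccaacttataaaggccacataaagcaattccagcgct
Exact matches to this motif on either strand occurred in 0.475% of the 32851 promoter windows, and Cyp8b1 was the only bile acid gene among the 6 listed to have one. The FOXA motif variant TATTTAC, found in 3.04% of windows, also occurred here, at −92 to −86. The closest summit to this promoter in either replicate was the one 8456 bp beyond the other end of the gene. A match describes letters and does not show binding, and the lack of a summit does not show that Hnf4a was absent.

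In the alternative route, Cyp27a1 (chr1:74713148-74737897, plus strand) held the pair that differed most between replicates. Both libraries placed the summit on the same base, chr1:74727162, inside the gene and 10735 bp from its nearer end. Its score was 4.19 in replicate 1, rank 18743, and 15.9 in replicate 2, rank 2108, so the position repeated exactly while the score did not. Replicate 2 had a further internal summit 420 bp away, with 7.17, and another 11033 bp beyond the gene inside Prkag3, with 9.63. Neither had a counterpart in replicate 1.

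Cyp7b1 (chr3:18071944-18243890), which is 171947 bp long, had 1 shared site deep inside the gene. It was at position 18139800 in replicate 1 and 18139824 in replicate 2, 67856 bp from the nearer end, with scores of 7.51 and 6.16. These were close to the medians of 7.32 and 6.67 over each whole list and below those of shared summits, 9.93 and 9.61. Each replicate had 1 more internal summit without a counterpart, with a score of 2.44 in replicate 1 and 3.50 in replicate 2. No summit of Cyp7b1 lay outside the gene body.

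The ring-modifying enzymes differed in the number of sites. Akr1d1 (chr6:37529978-37574921, plus strand), the steroid 5β-reductase, had 4 shared sites and was the nearest coding gene to all of them. No other protein-coding gene was in its window. Abcb11 also had 4 shared sites, and 3.06% of all genes had 4 or more. The windows of Akr1d1 (144.9 kb) and Abcb11 (204.3 kb) were longer than the median of 117.2 kb over all genes. The strongest Akr1d1 site was 44062 bp downstream in replicate 1 and 44057 bp in replicate 2, with scores of 16.9 and 19.9. Of the other downstream sites, that at 38281 bp in replicate 1 scored 13.4 and 5.00, and that at 47476 bp scored 7.27 and 4.28. The only shared site upstream was 34812 bp away in replicate 1 and scored 8.70 and 8.08. The 3 downstream sites thus fell between 38274 and 47476 bp from the gene, and a replicate 2 summit without a counterpart, 42292 bp downstream with 4.33, lay among them.

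Akr1d1 was also the only bile acid gene with a summit within 1 kb of a gene end. This summit occurred in replicate 1 only, 584 bp inside the gene and 389 bp downstream of the start listed in the promoter table, with a low score of 3.43. The closest summit of replicate 2 was 35412 bp away.

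Hsd3b7 (chr7:127800609-127803802, plus strand), the 3β-hydroxysteroid dehydrogenase of the pathway, had 1 summit in each replicate, and these were shared. It lay 30924 bp upstream in replicate 1 and 30934 bp in replicate 2 and scored 8.74 and 9.46. Its nearest gene was Orai3, which encodes a calcium channel subunit, and the summits stood 130 and 140 bp before the start of Orai3. The window of Hsd3b7 holds 5 other coding genes, so this site is described by position only.

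At the conjugating enzymes, the shared site closest to any bile acid gene from outside was that of Baat (chr4:49489416-49507915). It stood 2956 bp beyond the end of lower coordinate in replicate 1 and 2931 bp in replicate 2, and scored 13.4 and 15.9, in both lists above the median of shared summits, 9.93 and 9.61. Baat was its nearest coding gene, and the site also lies inside the long noncoding RNA gene Gm33009. Replicate 1 had unshared summits 3562 bp from this end, with 7.52, and 2575 bp beyond the other, with 8.33. The highest-scored summit in this window, 22.6 in replicate 1 at 36709 bp from Baat and inside Acnat1, had no replicate 2 counterpart within 33778 bp, although 88.2% of the 542 replicate 1 summits with scores within 10% of it were shared.

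Slc27a5 (chr7:12988346-12998192), the bile acyl-CoA synthetase, lies among 8 other coding genes. Its 2 shared sites were 26210 bp away in replicate 1, with scores of 13.7 and 12.8, and 10194 bp away, with 6.08 and 8.87. They were nearest to the zinc finger genes Zfp324 and Zfp446, and the second was inside Zfp446. The 2 unshared summits of replicate 1 scored up to 6.37 and the 3 of replicate 2 up to 7.34. No summit of either replicate lay in Slc27a5 or within 10 kb of it.

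The transporters showed the widest contrast. Abcb11 (chr2:69238282-69342616, minus strand) had the highest-scored site of all 10 genes, while Slc10a1 had no shared site. The Abcb11 site was at chr2:69355585 in replicate 1 and 1 bp away in replicate 2, 12969 and 12968 bp upstream of the annotated start. It scored 79.3 in replicate 1, rank 19 of 21283, and 76.5 in replicate 2, rank 22 of 24097. The other 15 shared sites ran from 4.19 to 25.5 in replicate 1 and from 4.11 to 41.3 in replicate 2, so the Abcb11 site was above all of them in both lists. By the lower of both scores it put Abcb11 at rank 12 of the 21887 genes, a place that Dhrs9 on its other side holds with the same summit.

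The other 3 shared sites in the Abcb11 window were nearest to other genes. At Spc25, a kinetochore gene, a site 32109 bp from Abcb11 scored 12.3 in replicate 1 and 12.2 in replicate 2 and lay 40 and 18 bp after the Spc25 start, and another 42700 bp away scored 12.4 and 7.0. A site 37639 bp upstream in replicate 1, before the start of the retinol dehydrogenase gene Dhrs9, scored 13.6 and 4.11. Inside Abcb11 itself there was a single summit, in replicate 2 only, with 5.96, and the remaining unshared summit, 25843 bp upstream in replicate 2, scored 2.87. The gene body of Abcb11 thus held no shared site, and its promoter none either.

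Of the promoters in these windows, 3 are shown because 2 hold a shared summit and that of Abcb11 does not; the Spc25 summits lie after the start and outside such a stretch. Each is the 250 bases before the annotated start, 5′ to 3′ on the gene's strand, from RefSeq GRCm38.p6. For Orai3 (chr7:127769565-127769814, plus) and Dhrs9 (chr2:69380212-69380461, plus) capitals mark the bases within 10 bp of a summit. For Abcb11 (chr2:69342617-69342866, minus) they mark the nuclear receptor hexamer AGGTCA, which reads TGACCT on this strand.
Orai3 promoter: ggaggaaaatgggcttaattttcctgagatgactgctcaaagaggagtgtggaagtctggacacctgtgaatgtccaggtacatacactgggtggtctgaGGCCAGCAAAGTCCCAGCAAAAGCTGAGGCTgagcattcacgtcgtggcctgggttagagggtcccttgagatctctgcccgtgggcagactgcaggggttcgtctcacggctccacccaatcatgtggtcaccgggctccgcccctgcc
Dhrs9 promoter: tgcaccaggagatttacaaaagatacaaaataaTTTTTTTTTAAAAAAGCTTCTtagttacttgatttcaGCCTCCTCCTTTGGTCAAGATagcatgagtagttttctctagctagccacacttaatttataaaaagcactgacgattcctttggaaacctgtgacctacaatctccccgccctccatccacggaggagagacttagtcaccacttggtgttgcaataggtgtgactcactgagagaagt
Abcb11 promoter: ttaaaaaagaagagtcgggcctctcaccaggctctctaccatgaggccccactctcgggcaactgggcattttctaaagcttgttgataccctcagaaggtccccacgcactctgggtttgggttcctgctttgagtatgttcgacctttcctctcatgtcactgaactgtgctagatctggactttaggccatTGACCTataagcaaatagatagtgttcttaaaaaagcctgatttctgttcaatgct
The summits of Orai3 overlap 1 stretch, and those of Dhrs9, which stand 207 bp before the start in replicate 1 and 170 bp in replicate 2, give 2 separate ones. The HNF4 motif core CAAAG occurred inside the capitals at −144 to −140 in Orai3 and, on the opposite strand, at −172 to −168 in Dhrs9. In both promoters the whole core lay within 10 bp of the replicate 2 summit but not of the replicate 1 summit. Each promoter held a second match outside the capitals, at −213 to −209 in Orai3 and at −101 to −97 in Dhrs9. That core is common: 53.9% of all promoter windows held it on either strand, as did the 7 windows of the bile acid genes. The hexamer AGGTCA was found in 16.3% of all windows and in 3 of the 7, and lies at −56 to −51 in Abcb11. The FOXA motif TGTTTAC (3.65% of all windows), the NR5A2 motif CAAGGTCA (1.56%) and the HNF1 motif core GTTAAT (7.10%) had no match in the 7 windows.

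Slc10a1 (chr12:80953185-80968705, minus strand), the main hepatocyte uptake carrier, had 2 summits in replicate 1 and 1 in replicate 2, none of them shared. In replicate 1 they lay 7876 bp downstream with a score of 11.2 and 21643 bp downstream with 4.43. The first stood 190 bp before the start of the splicing factor gene Srsf5. Of the 2017 replicate 1 summits with scores within 10% of its score, 61.2% were shared and 38.8% were not. In replicate 2 the only summit was 13536 bp upstream, with 3.19, a score that 995 summits of that list have in common. The replicates therefore had no site in common within 50 kb of Slc10a1, and the closest shared site was 61857 bp from the gene in replicate 1, with 6.60, and 61955 bp in replicate 2, with 5.40.

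Across the 16 shared sites the replicates gave similar scores on balance but differed at single sites. The median log2 ratio of replicate 2 over replicate 1 was −0.03 (SD over sites 0.86), against −0.04 (SD 0.66) for all 9193 shared summits. Replicate 1 scored higher at 9 sites and replicate 2 at 7. A difference above 2-fold occurred at 3 of the 16 (18.8%), against 13.1% of all shared summits: the internal site of Cyp27a1 (log2 ratio 1.92), the Dhrs9 promoter site in the Abcb11 window (−1.73) and the site 38281 bp downstream of Akr1d1 (−1.43). Scores come from separate peak calls of unknown depth, so these ratios describe the lists and not a change in occupancy.

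**Figure D2:**
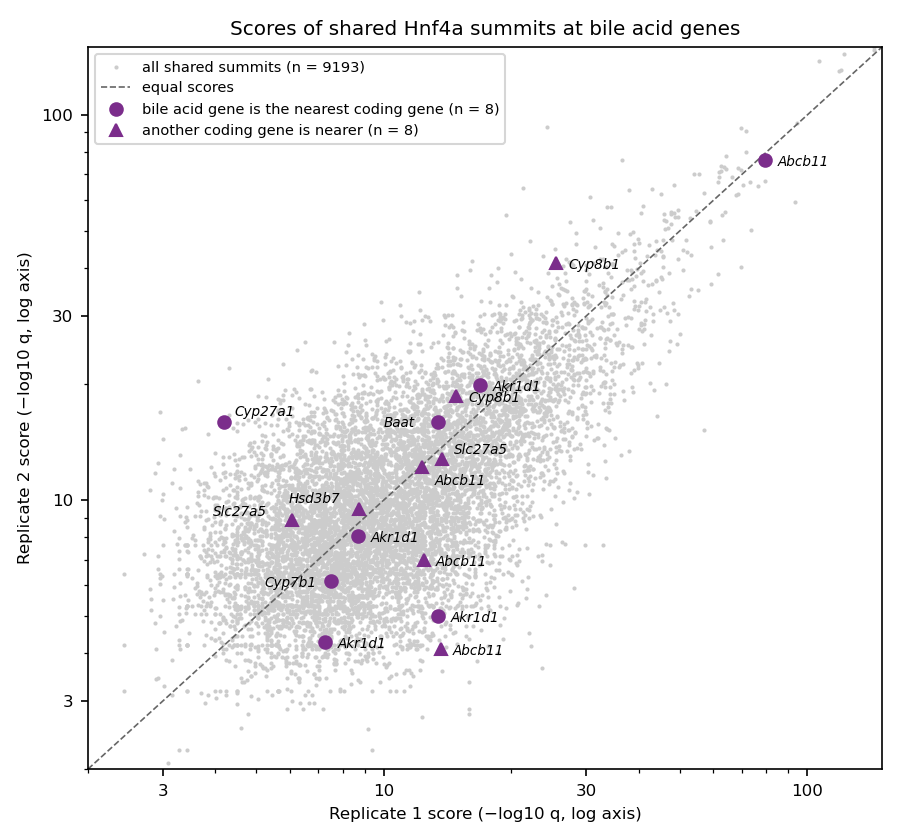
Scores of the 16 shared sites at bile acid genes in replicate 1 (x axis) and replicate 2 (y axis), both −log10 q on log axes. Purple circles are sites whose nearest coding gene is the bile acid gene named, triangles are sites nearer to another gene, grey points are all 9193 shared summits (10 lie beyond the axis limit of 150) and the dashed line marks equal scores; Abcb11 stands at the upper right near the line and Cyp27a1 farthest above it.

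By the sharing rule, paired summits can be at most 100 bp apart. The pairs at the 16 sites were a median of 19 bp apart, 60 bp at most, against a median of 32 bp over all shared summits. The shared sites made up 16 of 28 summits in each replicate, or 57.1% (95% exact binomial interval 37.2 to 75.5, counting error only), an interval that includes the 43.2% of all replicate 1 summits and the 38.1% of all replicate 2 summits that were shared. This interval treats summits as independent, although Abcb11 and Akr1d1 held 4 shared sites each, and both percentages count the same 16 pairs. The median score of the shared sites was 12.9 in replicate 1 and 10.8 in replicate 2. The 12 summits of each replicate without a counterpart had lower medians, 5.71 in replicate 1 (2.44 to 22.6) and 4.81 in replicate 2 (2.87 to 9.63). Over all unshared summits the medians were 6.02 in replicate 1 and 5.47 in replicate 2, so the whole lists differed in the same direction.

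Close to the limits of the rule, the widest accepted pairs were 60 bp apart at Slc27a5 and 59 bp at Abcb11. The closest rejected pair was 103 bp apart at the start of Chmp2a in the Slc27a5 window, with 6.37 in replicate 1 and 7.34 in replicate 2. The shared site just inside the 50 kb limit was that at 47476 bp from Akr1d1. Just outside it were a replicate 1 summit of 3.99 at 50162 bp from Cyp8b1, and a shared site 51757 bp from Cyp27a1 in replicate 1 that scored 10.9 and 5.32.

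The other genes of bile acid metabolism, a list of 32 regulators, side-chain enzymes and carriers, had a shared summit in or within 50 kb in 15 cases (46.9%), near the 47.9% of all genes, and within 10 kb in 11 cases (34.4%), against 26.0%. Abcc4, a basolateral bile acid exporter, had 9 shared sites, the best of which was inside the gene and scored 45.5 in replicate 1 and 47.4 in replicate 2. Slc10a2, the ileal uptake carrier, had a single site 24387 bp away with 33.1 and 32.6. Cyp2c70, which makes the muricholic acids of mice, had a site 187 bp from the gene with 27.2 and 28.8, closer than any of the shared sites that lay outside the 10 genes.

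Among the remaining genes of that list, the flippase gene Atp8b1 had its best site 31269 bp away (27.0 in replicate 1 and 22.6 in replicate 2), and Amacr, a racemase of side-chain shortening, had one 18894 bp away (18.1 and 15.6) that was nearer to C1qtnf3. The bile acid receptor gene Nr1h4 (16.0 and 15.0), the sterol carrier gene Scp2 (16.9 and 13.4) and Nr5a2, a nuclear receptor that activates Cyp7a1 and Cyp8b1 (8.21 and 14.2), had theirs inside the gene. No shared site was found at 17 of the 32, among them the sinusoidal carrier genes Slco1a1, Slco1a4 and Slco1b2, the canalicular pump gene Abcc2, and Abcg5 and Abcg8, which export sterols.

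**Figure D3:**
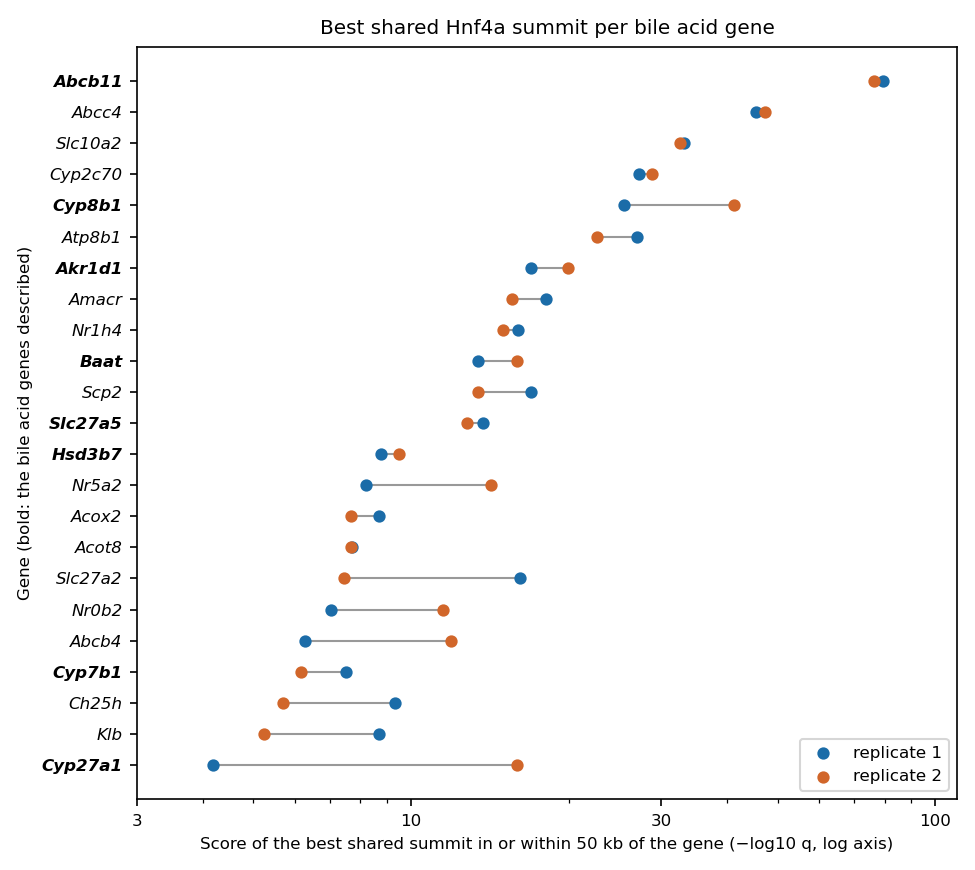
Best shared summit, by the lower of both scores, in or within 50 kb of each of the 8 bile acid genes described here that have one (bold) and of the 15 genes of the wider list (plain). The x axis is the −log10 q score on a log axis, with blue points for replicate 1 and orange points for replicate 2 joined by a line; Abcb11 is highest in both replicates and Cyp27a1 has the widest gap between them.

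RNA was not measured, so cell type could not be checked by expression, and summits beside marker genes do not replace that check. By the same 50 kb rule, which 47.9% of all genes met, the hepatocyte genes Alb, Afp, Apoa1 and Trf had shared summits and Ttr had none (4 of 5), the cholangiocyte genes Krt19, Epcam and Sox9 had them and Krt7 and Spp1 had none (3 of 5), and the fibroblast genes Col1a1, Col1a2, Thy1, Pdgfra and Fn1 had none (0 of 5). The best site of Alb, which is also in the Afp window, scored 69.5 in replicate 1 and 92.3 in replicate 2, beside 79.3 and 76.5 at the Abcb11 site. The fibroblast windows held 4 summits in replicate 1 and 7 in replicate 2, none within 100 bp of each other.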

How the data were processed

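Both deposited lists hold 1-bp peak summits of 1 library each in mm10. Per the submitters' processing notes the tools were fastp 0.23.4, HISAT2 2.0.5 and MACS2 2.2.9.1, and per the peak names peaks were called without model building at a q threshold of 0.01. The score in the deposited lists is the −log10 of the q-value, not scaled between libraries. A control library, duplicate removal and region filters are not given in the sources used here, and depth is unknown.

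From these lists, summits were assigned to genes and paired as described, with gene positions from the RefSeq GRCm38.p6 table, which has no strand. Strand and starts came from the RefSeq promoter table where it lists a gene. Python 3.11.15, numpy 2.4.6, pandas 2.3.3, scipy 1.17.1 and matplotlib 3.10.9 were used, and the counting was tested on simulated lists. The genes and lists were chosen with earlier results of these data known. All 10 genes and each of their shared sites are named, other summits by highest score, count or range, and up to 8 genes of the wider list by score. The Cyp8b1, Orai3, Dhrs9 and Abcb11 promoters were chosen for display after their values were seen. Alternatives changed the pairing distance, window, score filter and gene assignment. A result at 1 neighbouring gene is not reported here.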

Additional observations from a re-analysis of the deposited data

How the results depend on the processing

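The count of genes with a shared summit, 8 of 10, stayed between 6 and 9 when sharing was set at 50, 200 or 500 bp, the window at 25 or 100 kb, or summits limited to scores of 5 or more or to the 10000 highest. The share of all genes moved with the setting: 38.4%, 52.8% and 54.5% at 50, 200 and 500 bp (8 of the 10 in each), 36.1% at 25 kb (6) and 62.6% at 100 kb (9), 43.9% with scores of 5 or more (7) and 32.0% with the 10000 highest (6). The count was 1 when both replicates had to name the identical base, 2 inside the genes only, 4 within 10 kb, 5 with scores of 10 or more, and 5 where the bile acid gene had to be the nearest coding gene. Of all genes, 1.17% passed at the identical base. The shared percentage of the summits at these genes, 57.1% in each replicate, was 3.57% in each at the identical base and 87.5% of replicate 2 with scores of 10 or more, where 8 summits remained, and under the other settings it lay inside the interval given. The median log2 score ratio lay between −0.05 and 0.28 under 6 other settings, among them 0.14 with ranks, each divided by the length of its list, in place of scores. With undivided ranks, an alternative chosen after seeing the data, it was −0.04, so the sign with ranks rests on the list lengths. Taking a single replicate, with no match required, gave 9 genes without replicate 1 and 10 without replicate 2. No paired analysis was possible because there is 1 group. The lists hold no read counts, so how far depth limits the shared sites was not tested.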
